A study of Mus musculus with 79 samples.

Results

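Acute phase genes encode plasma proteins whose levels change during inflammation. The 7 members described here were Hp, Orm1, Saa3, Lcn2, Lrg1, Cp and C3, chosen by gene symbol out of 22335 symbols on the array, and each had 1 probeset. Hp had been singled out beforehand because its quadriceps score was among those that differed most between diets, so its diet difference is given as a description with no test. Quadriceps RNA came from male BXD mice, inbred strains bred from C57BL/6J and DBA/2J, and from both parents. Mice ate either chow (CD, Harlan 2018) or, from 8 weeks of age, a high fat diet (HFD, Harlan 06414), and all were fasted overnight before sacrifice at 29 weeks. Each of the 79 arrays, 42 on CD and 37 on HFD, held RNA pooled from about 5 animals that shared strain and diet, so the arrays carry no measure of variation among those animals. The 42 strains included 37 with an array on each diet.

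Most acute phase proteins of plasma are secreted by the liver when interleukin-6 and related cytokines act on hepatocytes through STAT3 and C/EBP factors, but adipocytes, macrophages and other cells can transcribe many of the same genes. Haptoglobin, the product of Hp, binds free haemoglobin. Adipose tissue is a known source of haptoglobin in obesity, and quadriceps samples can hold fat that lies between or around muscle fibres.

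Values were scores scaled so that all arrays had mean 8.0 and SD 2.0. Neither a log scale nor its base was stated, so a difference of 1 unit is not called a fold. Muscle markers had a mean score between 14.62 and 14.95 on every array. Of the 10 adipocyte markers 8 rose in HFD, where 18.9% of all probesets rose and 19.3% fell, and their mean ranged from 8.93 to 10.41 on CD and from 9.06 to 10.5 on HFD. In bulk tissue, fewer cells of a type and less RNA per cell cannot be told apart. Hepatocyte markers stood out on 3 arrays, BXD51 on both diets and BXD66 on CD, where Alb (albumin) scored 11.5 to 11.64. The fits on the members and gene lists, and the correlations of members with Hp and with marker means, were therefore also computed without these strains. The fits with an adipocyte term, the correlations of HFD minus CD differences and the correlations among the other members were not.

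Hp lay higher on HFD than on CD in 32 of 37 strains. On CD its lowest, median and highest scores were 7.67, 8.39 and 10.39, and on HFD 7.92, 9.36 and 11.08. The diets overlapped widely, and the strains on CD fell into separate clusters, 32 strains between 7.67 and 8.91 and 10 between 9.32 and 10.39. Mean Hp was 8.65 ± 0.73 (SD, n = 42) on CD and 9.43 ± 0.76 (SD, n = 37) on HFD, a difference of 0.78 units (SE 0.166). The difference within strains ranged from -1.63 to 1.92, with a median of 0.98. No such clusters were found on HFD.

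Lrg1, which encodes leucine-rich alpha-2-glycoprotein, a secreted modulator of TGF-beta signalling, rose on HFD. Its lowest, median and highest scores were 8.54, 9.33 and 10.11 on CD and 8.98, 9.72 and 10.7 on HFD. It was higher on HFD in 29 of 37 strains, although the ranges overlapped. The mean went from 9.35 ± 0.34 (SD, n = 42) to 9.73 ± 0.39 (SD, n = 37), which is 0.38 units higher (SE 0.0817, adjusted p 0.000104 by limma). Within array batch 1 alone the limma adjusted p was 0.0181 and within batch 2 alone 0.0144.

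Orm1 encodes alpha-1-acid glycoprotein, a plasma carrier of small molecules, and belongs to a family with the close copies Orm2 and Orm3, so its probes may share signal with them. It also rose on HFD. Its lowest, median and highest scores were 7.41, 8.04 and 9.6 on CD and 7.36, 8.37 and 9.68 on HFD. The ranges nearly coincided, but 29 of 37 strains were higher on HFD. The mean went from 8.13 ± 0.41 (SD, n = 42) to 8.44 ± 0.50 (SD, n = 37), which is 0.31 units higher (SE 0.101, adjusted p 0.0104 by limma). Within batch 1 the difference was 0.37 (limma adjusted p 0.079) and within batch 2 it was 0.264 (limma adjusted p 0.17), so the call rested on both batches together. Orm3 also rose, by 0.21 units. Orm2 differed by -0.12 units (limma adjusted p 0.023), which did not pass with strain as a block (limma adjusted p 0.0713), and it was higher on HFD in 15 of 37 strains.

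The other 4 members did not pass the test between diets. Lcn2, encoding lipocalin 2, which binds bacterial siderophores, ranged from 7.85 to 9.39 on CD (median 8.21) and from 7.84 to 9.32 on HFD (median 8.35). Its difference was 0.11 units, with a 95% interval of -0.04 to 0.26 (limma adjusted p 0.259). It was higher on HFD in 27 of 37 strains, but single strains moved far in both directions, from -1.25 to 1.09. Saa3, a serum amyloid A gene expressed outside the liver, ranged from 6.21 to 7.03 on CD (median 6.54) and from 6 to 7.36 on HFD (median 6.55). Its probeset was dimmer than most, and its difference was 0.03 units (95% interval -0.08 to 0.13, limma adjusted p 0.733). Cp, encoding the copper-carrying ferroxidase ceruloplasmin, ranged from 8.76 to 9.53 on CD (median 9.09) and from 8.54 to 9.62 on HFD (median 9.06). Its difference was -0.06 units (95% interval -0.15 to 0.03, limma adjusted p 0.302). C3, the central complement component, ranged from 10.91 to 12.25 on CD (median 11.7) and from 11.18 to 12.16 on HFD (median 11.62). Its difference was -0.05 units (95% interval -0.17 to 0.06, limma adjusted p 0.508), and it was higher on HFD in 14 of 37 strains.

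**Figure D1:**
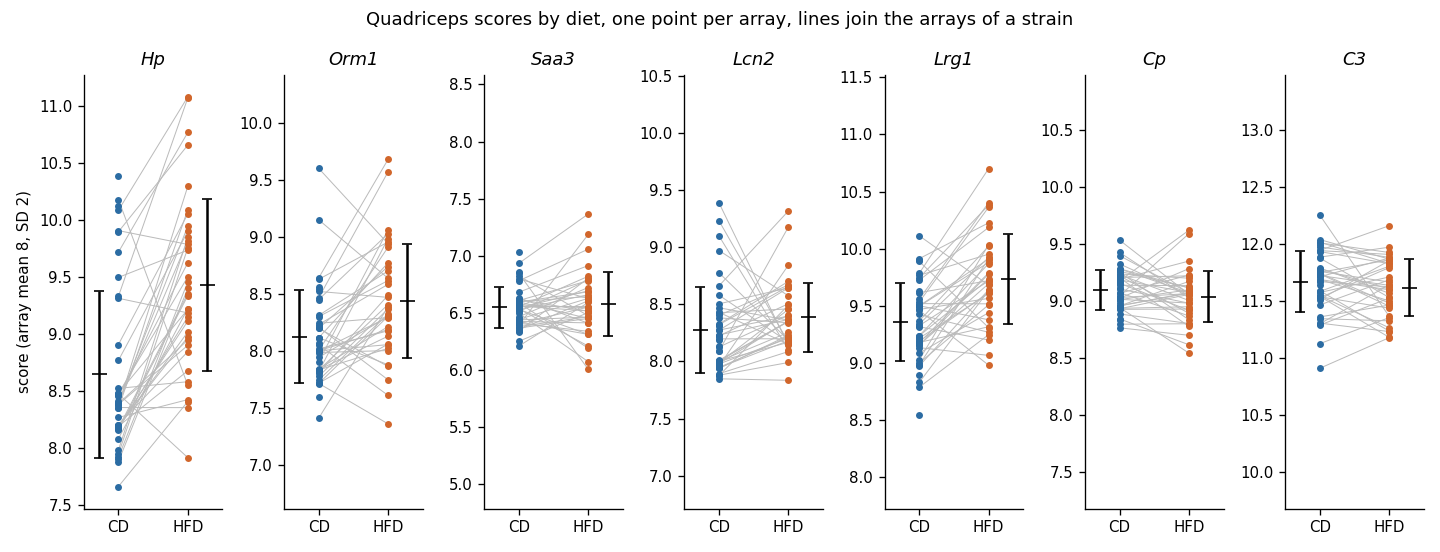
Scores (array mean 8.0, SD 2.0) of the 7 members on CD (blue) and HFD (orange), one point per array, with grey lines joining the 2 arrays of a strain and black bars giving the mean and SD of each diet. All panels span the same number of score units, each centred on its own gene. Hp shifted from a median of 8.39 to 9.36 and Lrg1 from 9.33 to 9.72, whereas the medians of C3 were 11.7 and 11.62.

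Thus 2 of the 6 members other than Hp rose and 0 fell. Over all 35556 probesets 18.9% rose and 19.3% fell, and the 6 members had a median difference of 0.068 units against -0.001 over all probesets.

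The differences were then described strain by strain. Hp, Orm1 and Lrg1 were all higher on HFD in 24 of 37 strains and all lower in 1, and all 7 members were higher in 4. These 3 genes were each higher in most strains (32, 29 and 29 of 37), so the count of 24 does not show that they moved together. The highest Hp differences were 1.92 in BXD51, 1.864 in BXD96 and 1.805 in BXD87. In BXD51 Orm1 differed by 1.104 and Lrg1 by 0.637. In BXD96 Orm1 differed by 0.976 but Lrg1 by -0.58, and in BXD87 the values were 0.592 and 0.805. Orm1 was therefore higher on HFD in these 3 strains, and Lrg1 in 2 of them. The lowest Hp differences were -1.626 in BXD98, -0.558 in BXD49 and -0.128 in BXD66. BXD98 had one of the highest Hp scores on CD, 10.18, and 8.554 on HFD, and while its Lrg1 and Saa3 differed by -0.432 and -0.841, its Orm1 differed by 0.316. In BXD49 Orm1 differed by -0.355 and Lrg1 by -0.068. In BXD66, a strain whose CD array had high hepatocyte markers, Orm1 differed by -0.512 but Lrg1 by 0.537.

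**Figure D2:**
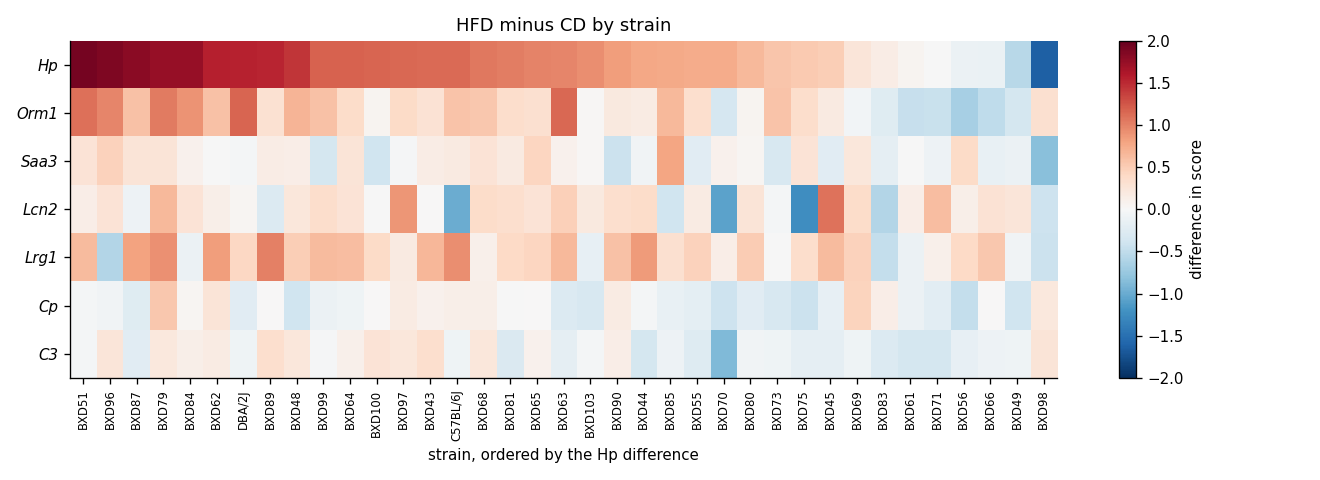
HFD minus CD score for each member (rows) in each of the 37 paired strains (columns), ordered from the highest to the lowest Hp difference, with red for higher on HFD and blue for lower. Orm1 tends to follow Hp, from 1.104 in BXD51 to -0.355 in BXD49, but not in BXD98 (0.316), whereas C3 and Cp have mostly small differences of both signs.

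Across the 37 strains Orm1 was the one of the 6 members whose diet difference had a slope on that of Hp past the threshold. Its difference changed by 0.44 units per unit of Hp difference (SE 0.0848, limma adjusted p 0.00996), and 0.169% of probesets had a positive slope past the threshold. Of the other 5 members 0 passed this limma test, and Saa3 and Lrg1 had an unadjusted p below 0.05 (0.00237 and 0.0187). For Lrg1 r was -0.006 among strains with both arrays in batch 1 and 0.661 among those in batch 2. Pearson's r for Orm1 was 0.655 (permutation p 3e-05) and Spearman's rho 0.743 (permutation p 1e-05, the smallest that 100000 draws can give), one of 6 such relations, and r was 0.8 without the 2 strains farthest from the median of Hp. Among strains with both arrays in batch 1 r was 0.809, and with both in batch 2 it was 0.587. The slope did not pass in strains with both arrays in the same batch (0.437, limma adjusted p 0.0735), nor with the mean of the adipocyte markers as a further term (0.149, limma adjusted p 0.957). Saa3 had r = 0.488 (permutation p 0.0029) and rho = 0.411 (permutation p 0.0121), but r was 0.263 without the 2 farthest strains and its slope did not pass (0.202, SE 0.0619, limma adjusted p 0.32). C3 had r = 0.265 (permutation p 0.111) and rho = 0.44 (permutation p 0.00678). Without the 2 farthest strains its r was 0.503 and its slope went from 0.094 to 0.233 (limma unadjusted p 0.00158, adjusted p 0.379), and in batches 1 and 2 r was 0.359 and 0.083.

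Within HFD, where no diet difference can contribute, Orm1 and Saa3 had slopes on Hp past the threshold, that is 2 of 6 members against 0.636% of all probesets. Orm1 changed by 0.493 units per unit of Hp (SE 0.0722, limma adjusted p 8.92e-05). Its r was 0.749 (permutation p 1e-05) and its rho 0.708 (permutation p 1e-05), with r = 0.695 without the 2 farthest arrays. Saa3 changed by 0.249 units per unit of Hp (SE 0.0459, limma adjusted p 0.00179). Its r was 0.675 (permutation p 2e-05) and its rho 0.622 (permutation p 0.0001), with r = 0.656 without the 2 farthest arrays. Within batches 1 and 2 r was 0.703 and 0.788 for Orm1 and 0.667 and 0.687 for Saa3. With these fewer arrays the slope of Orm1 had limma adjusted p values of 0.499 in batch 1 and 0.0128 in batch 2, and that of Saa3 0.721 and 0.0948, so that only the slope of Orm1 in batch 2 passed. BXD65 carried the highest scores of both Hp (11.08) and Saa3 (7.365) on HFD. C3 had r = 0.525 (permutation p 0.0009) and rho = 0.512 (permutation p 0.00154), and Lrg1 had r = 0.515 (permutation p 0.001) and rho = 0.451 (permutation p 0.00554). Without the 2 farthest arrays r was 0.386 for C3 and 0.488 for Lrg1, and within batches 1 and 2 it was 0.656 and 0.428 for C3 and 0.263 and 0.716 for Lrg1. Over all probesets their limma adjusted p values were 0.0847 and 0.0893, so neither passed. Cp (r = 0.328, permutation p 0.0475, rho = 0.301, permutation p 0.0707) and Lcn2 (r = 0.271, permutation p 0.103, rho = 0.233, permutation p 0.165) did not pass either, with limma adjusted p values of 0.565 and 0.716.

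On CD the clusters of Hp precluded a pooled correlation. The fitted slope over all CD arrays passed for Orm1 alone among the 6 (0.397 units per unit of Hp, SE 0.0608, limma adjusted p 0.000113), against 0.329% of probesets. It passed in batch 1 (limma adjusted p 0.0379) but not in batch 2 (0.122) or with the mean of the adipocyte markers as a further term (0.147, limma adjusted p 0.596). Within the 32 strains of the lower cluster Orm1 had r = 0.665 (permutation p 5e-05) and rho = 0.592 (permutation p 0.00045), with r = 0.633 without the 2 farthest. Within the 10 strains of the upper cluster r was -0.193 (permutation p 0.605) and rho -0.055 (permutation p 0.891). BXD66, with high hepatocyte markers, is in this cluster. Without it, and with batches centred over all CD arrays instead of within the cluster, r was -0.00408 (permutation p 0.992) and rho 0.0667 (permutation p 0.88). In the lower cluster alone the slope of Orm1 was 0.622 with a limma adjusted p of 0.258 (unadjusted 2.9e-05), and 0 of 6 members passed against 0.00281% of probesets. For Saa3 the batches gave different slopes on CD, 0.232 in batch 1 (limma adjusted p 0.0136) and -0.014 in batch 2 (limma adjusted p 0.978), and whether these differ was not tested. Within the clusters Saa3 had r = 0.053 (permutation p 0.772, rho = -0.021, permutation p 0.907) in the lower and r = 0.421 (permutation p 0.221, rho = 0.321, permutation p 0.366) in the upper. Without BXD66, and centred over all CD arrays, the upper cluster gave r = 0.629 (permutation p 0.0718) and rho = 0.717 (permutation p 0.0367) for Saa3.

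A slope past the threshold on one diet and not on the other does not show that the diets differ, so that difference was tested. The slope of Saa3 on Hp was larger on HFD than on CD by 0.137 (95% interval 0.02 to 0.25), with an unadjusted limma p of 0.0188 and an adjusted p of 1. Limma called 0 of 35555 probesets, a share of 0%, with 1206 at an unadjusted p below 0.05, and 0 with strain as a random block. For Orm1 the slopes differed by 0.096 (95% interval -0.09 to 0.28).

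**Figure D3:**
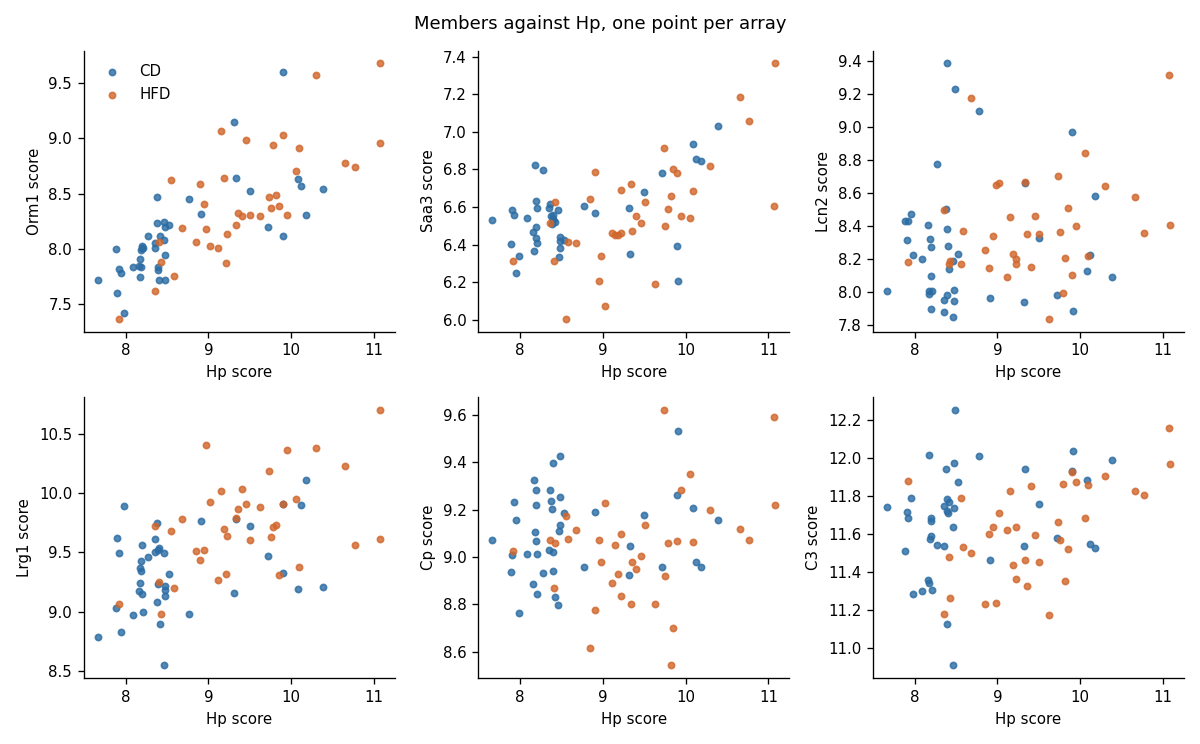
Scores of the 6 other members against the Hp score, one point per array, CD in blue and HFD in orange. Orm1 rises with Hp on HFD (r = 0.749) and, on CD, within the lower cluster of Hp (r = 0.665) but not within the upper (r = -0.193). Saa3 rises with Hp on HFD (r = 0.675), and the gap in Hp on CD between 8.91 and 9.32 is visible in every panel.

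The other members were also compared among themselves. On HFD all 15 pairs of the 6 other members had a positive r, from 0.112 to 0.608 with a median of 0.354. On CD 11 of 15 pairs were positive, from -0.217 to 0.637 with a median of 0.075. Whether the pairs differed between diets was not tested.

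For each member the strain levels on CD were then compared with those on HFD. Over the 37 paired strains C3 had r = 0.544 between its CD and HFD scores (permutation p 0.00045, rho = 0.54, permutation p 0.00053, adjusted p over all probesets 0.00864). Orm1 had r = 0.473 (permutation p 0.00324, rho = 0.396, permutation p 0.0156, adjusted p 0.0343). Thus 2 of the 6 members passed, against 10.5% of all probesets. Without BXD51 and BXD66 the adjusted p of Orm1 was 0.058 and that of C3 0.0184. Lrg1 (r = 0.391, permutation p 0.0165, rho = 0.37, permutation p 0.024, adjusted p 0.111), Cp (r = 0.308, permutation p 0.0621, rho = 0.28, permutation p 0.0949, adjusted p 0.257), Saa3 (r = 0.17, permutation p 0.314, rho = 0.105, permutation p 0.538, adjusted p 0.613) and Lcn2 (r = 0.047, permutation p 0.782, rho = 0.106, permutation p 0.535, adjusted p 0.918) did not pass. For C3 r was 0.659 with both arrays in batch 1, 0.439 with both in batch 2 and 0.664 with arrays in different batches, and for Orm1 0.438, 0.57 and 0.049. Within the lower CD cluster of Hp, 29 paired strains gave r = 0.198 (permutation p 0.302) and rho = 0.108 (permutation p 0.572) between diets, with HFD scores from 7.92 to 10.3. The HFD scores of the 8 paired strains of the upper cluster ranged from 8.55 to 11.08.

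BXD100 had the lowest C3 score on both diets, 10.909 and 11.177, and the lowest Lcn2 score on both, 7.848 and 7.835. BXD79 had the highest score on HFD for Orm1 (9.68), Lcn2 (9.319), Lrg1 (10.701) and C3 (12.158), and the second highest for Hp (11.07) and Cp (9.589). In the parents, with 1 array per strain and diet and hence no replicate check, Hp went from 8.771 to 9.901 in C57BL/6J and from 7.921 to 9.459 in DBA/2J. Orm1 went from 8.452 to 9.03 in C57BL/6J and from 7.819 to 8.987 in DBA/2J. Both parents were thus higher on HFD for both genes. Lcn2 went from 9.099 to 8.101 in C57BL/6J and from 8.427 to 8.461 in DBA/2J.

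Adipocyte markers moved with these results. Their mean was higher on HFD in 30 of 37 strains, by 0.36 ± 0.37 units (SD, n = 37), and the markers that passed with large differences were Cidec (0.75 units), which coats lipid droplets, and Adipoq (0.54 units), the hormone adiponectin. On HFD Hp varied with the marker mean (r = 0.758, permutation p 1e-05, rho = 0.76, permutation p 1e-05), and without the 2 arrays farthest from the median of the marker mean r was 0.683. Orm1 followed the marker mean on both diets, with r = 0.809 on CD and 0.858 on HFD (permutation p 1e-05 for each), rho = 0.687 and 0.833 (permutation p 1e-05 for each), and r = 0.678 and 0.81 without the 2 farthest arrays. Lrg1 (r = 0.631, permutation p 3e-05, rho = 0.537, permutation p 0.00075) and C3 (r = 0.572, permutation p 0.00028, rho = 0.558, permutation p 0.00059) followed it on HFD. In batches 1 and 2 these HFD values of r were 0.705 and 0.799 for Hp, 0.762 and 0.94 for Orm1, 0.574 and 0.683 for Lrg1, and 0.686 and 0.47 for C3. These were 14 relations, 7 on each diet. Adjusted over all probesets, p on HFD was 3.62e-08 for Orm1, 0.0076 for Lrg1 and 0.0334 for C3, and the share of probesets with a positive relation was 0.858% on HFD and 0.205% on CD. On CD Hp varied with the marker mean within the lower cluster (r = 0.598, permutation p 0.00031, rho = 0.583, permutation p 0.00044, and r = 0.531 without the 2 farthest). In the upper cluster r was 0.177 (permutation p 0.648, rho = 0.164, permutation p 0.656). Without BXD66, and centred over all CD arrays, it was 0.314 (permutation p 0.424, rho = 0.567, permutation p 0.121). Saa3 and Lcn2 on HFD had r = 0.307 (permutation p 0.0632, rho = 0.323, permutation p 0.0516) and r = 0.3 (permutation p 0.0706, rho = 0.251, permutation p 0.134).

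**Figure D4:**
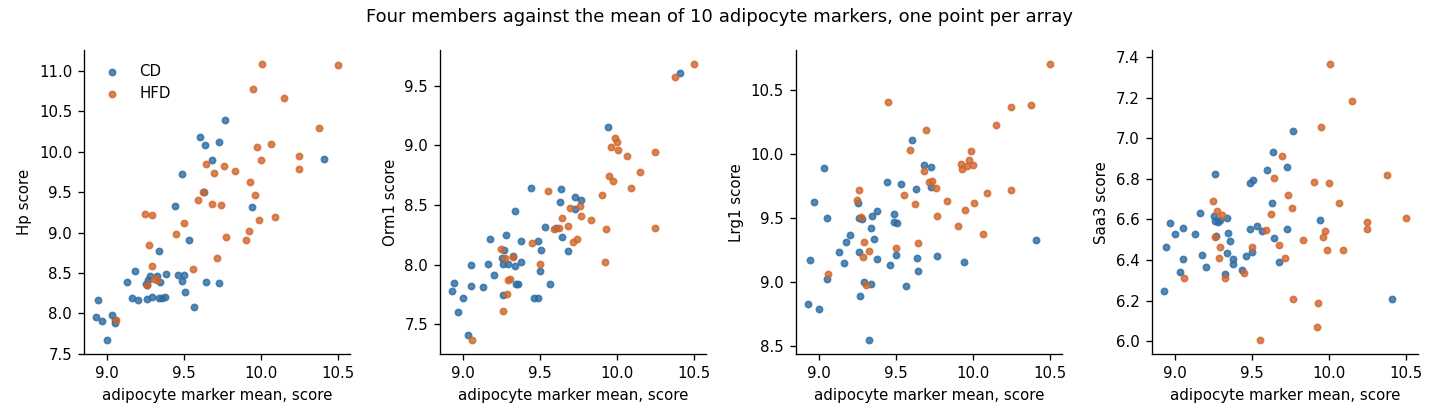
Scores of Hp, Orm1, Lrg1 and Saa3 against the mean score of the 10 adipocyte markers, one point per array, CD in blue and HFD in orange. Orm1 rises along the axis on both diets (r = 0.809 on CD and 0.858 on HFD), whereas Saa3 on HFD has r = 0.307.

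With the adipocyte marker mean as a further term in the fit, the Hp difference between diets was 0.165 units and that of Orm1 -0.114 (limma adjusted p 0.174). Lrg1 differed by 0.197 (limma adjusted p 0.0669, unadjusted 0.0223). By limma 0 of the 6 members other than Hp were then called higher and 2 were called lower, against 15% of probesets called higher and 15.7% lower. Those 2 were Cp (-0.139, limma adjusted p 0.0225) and C3 (-0.176, limma adjusted p 0.0207). On HFD the slope of Orm1 on Hp was 0.152 with this term (limma adjusted p 0.727). That of Saa3 was 0.384 (SE 0.065, limma adjusted p 0.0156), as 1 of 6 members and 0.0253% of probesets. Saa3 thus varied with Hp on HFD also with the adipocyte markers in the fit.

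**Figure D5:**
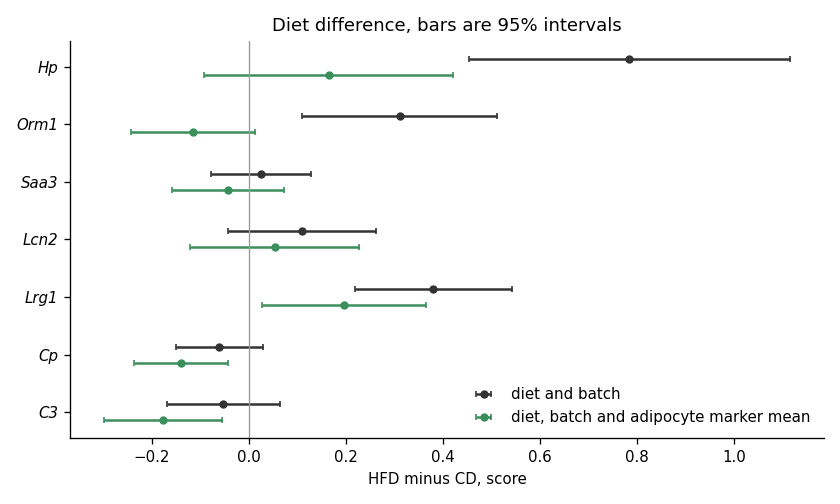
HFD minus CD difference in score for each member with 95% intervals, from the fit with diet and batch (black) and from the fit that also held the adipocyte marker mean (green). Hp moves from 0.78 to 0.165, Orm1 from 0.31 to -0.114 and Lrg1 from 0.38 to 0.197.

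Other cell types were followed by their markers, whose counts stand beside the 18.9% of all probesets that rose and the 19.3% that fell. With strain as a block 7343 of 35556 probesets rose and 7098 fell, and without BXD51 and BXD66 18% rose and 18.4% fell. Of 7 macrophage markers 5 rose and 0 fell, among them Cd68 (0.39 units) and Adgre1 (0.37 units). With strain as a block 6 rose, as Lyz2 (0.16 units, limma adjusted p 0.0173) then passed, and without BXD51 and BXD66 4 rose, as Csf1r (limma adjusted p 0.0627) then did not. With the adipocyte marker mean as a term, where 15% of all probesets rose and 15.7% fell, 2 macrophage markers (Cd68 and Adgre1) rose and 1 (Itgax, -0.19 units, limma adjusted p 0.00397) fell, whereas Mrc1 (0.08 units, 0.305), Csf1r (0.03 units, 0.72) and Itgam (0.05 units, 0.382) did not pass. On HFD Hp varied with the macrophage marker mean (r = 0.613, permutation p 4e-05, adjusted over the 8 marker lists 0.00016, rho = 0.567, permutation p 0.00035) and with the fibroblast marker mean (r = 0.606, permutation p 7e-05, adjusted 0.000187, rho = 0.586, permutation p 0.00024). Without the 2 farthest arrays these were 0.526 and 0.494, and in batches 1 and 2 they were 0.542 and 0.674 for macrophage and 0.572 and 0.682 for fibroblast markers. For hepatocyte markers r was 0.0849 (permutation p 0.608, rho = -0.166, permutation p 0.327), without BXD51 and BXD66 -0.165 (permutation p 0.345, rho = -0.268, permutation p 0.121), without the 2 farthest arrays 0.0711 and in the batches 0.119 and 0.058. Of 6 hepatocyte markers on the array 0 rose and 2 fell, Ahsg (fetuin-A) by 0.29 units and Tat (tyrosine aminotransferase) by 0.14 units. The count that fell was 3 with strain as a block, without BXD51 and BXD66 and with the adipocyte term, since Apoa2, an apolipoprotein gene, was then called lower (-0.12, -0.1 and -0.18 units, limma adjusted p 0.0114, 0.0148 and 0.0139). Of 8 neutrophil markers 1 rose, Csf3r (0.17 units), and 3 fell (2 with strain as a block or with the adipocyte term, where Mpo had limma adjusted p values of 0.105 and 0.0511), with Ltf (lactoferrin) and S100a8 (a calcium-binding protein of neutrophils) at -0.38 and -0.26 units, and the neutrophil mean had r = -0.148 with Hp on HFD (permutation p 0.38, rho = -0.0704, permutation p 0.676, r = 0.00617 without the 2 farthest, and -0.156 and -0.148 in the batches). Endothelial markers rose in 3 of 5, muscle markers in 1 of 7, fibroblast markers in 0 of 6 and red blood cell markers in 0 of 4. With strain as a block the fibroblast count was 1 of 6, since the collagen gene Col3a1 was called higher (0.08 units, limma adjusted p 0.0394). The part of each cell type in the results on the members was not tested.

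Among 21 other acute phase genes 4 rose and 6 fell, with a median difference of -0.05 units. Over all probesets 18.9% rose and 19.3% fell, so the number that rose was near that share. With strain as a block the counts were also 4 and 6, but Orm2 and Steap4 (limma adjusted p 0.0607) no longer passed and Agt (higher) and Fgb (lower) did. Without BXD51 and BXD66 3 rose and 7 fell, as Steap4 (limma adjusted p 0.0573) no longer passed and Fgb (0.00377) was called lower. Under the adipocyte term 1 rose (Orm3) and 6 fell, beside 15% and 15.7% of all probesets. Serpina3n, a serine protease inhibitor, rose by 0.49 units (adjusted p 0.000164 by limma, SE 0.108) and Lbp, which presents lipopolysaccharide to its receptors, by 0.31 units (adjusted p 6.65e-05 by limma, SE 0.0643). With the adipocyte term these differences were 0.17 (limma adjusted p 0.2) and 0.12 (limma adjusted p 0.122), and neither passed. Hamp, encoding the iron hormone hepcidin, fell by 0.25 units and Hpx, encoding the haem carrier hemopexin, by 0.19 units. Serpina3n varied with Hp, with slopes of 0.35 on CD, 0.58 on HFD and 0.54 on the difference between diets, each past the threshold. Its CD slope pools the clusters of Hp. In the lower cluster alone 1 of 35555 probesets had a positive slope past the threshold. Lbp varied with Hp on HFD (0.27 units per unit of Hp). With the adipocyte term the slopes of Serpina3n were 0.35, 0.48 and 0.48 (limma adjusted p 0.266, 0.0518 and 0.188) and that of Lbp was 0.1 (0.798), so none of these passed.

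The complement list had 7 genes that rose and 2 that fell out of 18, beside the 18.9% and 19.3% of all probesets, and 6 that rose without BXD51 and BXD66, where Cd59a had a limma adjusted p of 0.0609. In the fit with the adipocyte term 3 rose and 3 fell, beside 15% and 15.7% of all probesets. There C4b (0.15 units, limma adjusted p 0.0805), C1qb (0.14 units, 0.104), C1qc (0.04 units, 0.65) and Cd59a (0.11 units, 0.416) no longer passed and C6 was called lower (-0.1 units, 0.0468). C3ar1, a receptor for a fragment of C3, rose by 0.44 units (0.26 with the adipocyte term) and C4b by 0.34 units, whereas Cfd (adipsin), an adipocyte protease that activates factor B, fell by 0.61 units and C7 by 0.37 units. Cfb, encoding factor B, rose by 0.30 units and varied with Hp on CD, on HFD and in the difference between diets, with slopes of 0.21, 0.26 and 0.21. Its CD slope pools the clusters of Hp. With the adipocyte term Cfb rose by 0.13 units, and its slopes were 0.19, 0.17 and 0.17 (limma adjusted p 0.0598, 0.224 and 0.872). Of 20 cytokine signalling genes 3 rose and 3 fell, near the 18.9% and 19.3% over all probesets. With strain as a block 2 rose and 3 fell, since Il1b (limma adjusted p 0.0671) and Osm (0.102) no longer passed and Jak2 was called lower (0.00814), and without BXD51 and BXD66 Osm did not pass either (0.0513). The adipocyte term left 2 that rose and 2 that fell (15% and 15.7% of all probesets), as Il1b (0.0554) and Osm (0.108) did not pass. Socs3, a feedback inhibitor of STAT3 signalling, rose by 0.18 units and the receptor Tnfrsf1a by 0.12 units, whereas the transcription factor gene Cebpd fell by 0.32 units and Il6 by 0.20 units. On either diet 0 of 20 had a slope on Hp past the threshold, where 0.329% of all probesets on CD and 0.636% on HFD had a positive one. Of 15 receptor and iron genes 5 rose and 0 fell (4 with strain as a block or without BXD51 and BXD66, where Eng had limma adjusted p values of 0.0556 and 0.0567), with Tfrc, the transferrin receptor, at 0.25 and Ftl1, ferritin light chain, at 0.16 units. Tf (transferrin) did not pass between diets (0.07 units) but varied with Hp on both, with slopes of 0.26 on CD, where the clusters of Hp are pooled, and 0.38 on HFD. With the adipocyte term Tf was called lower on HFD (-0.27 units, limma adjusted p 8.43e-05), and its slopes were -0.07 (0.848) and 0.13 (0.769). In the same fit 1 gene of this list rose and 2 fell, beside 15% and 15.7% of all probesets, and Tfrc (0.25 units, 0.0907) and Ftl1 (0.06 units, 0.234) did not pass.

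To place Hp among all genes, 22334 symbols were ranked by the mean of their r with Hp on the 2 diets. This ranking pools the CD arrays across the clusters of Hp, so ranks by r on HFD alone are given beside it. The first 10 were Fads3, Lep, Npr3, Dram1, Cidec, Mest, Prkar2b, Cfb, Adipoq and Tshr, with r on HFD from 0.701 for Tshr to 0.871 for Fads3. By HFD alone 8 of these were also in the first 10, while Prkar2b ranked 12 and Tshr 47, and Serpina3n and Sncg entered at 6 and 10. The list held leptin (Lep) and 2 of the adipocyte markers. On HFD alone Orm1 ranked 19, Saa3 72, C3 288, Lrg1 317, Cp 1398 and Lcn2 2149, whereas by the mean over both diets they ranked 17, 110, 474, 322, 2036 and 4110.

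The region around the transcription start could be printed for members in the RefSeq promoter table of build GRCm38.p6, which matched 5 of 7 (Saa3, Lcn2, Lrg1, Cp and C3). Each window runs from 250 bases before to 50 bases after the start. Shown are Lrg1, which rose on HFD, Saa3, which varied with Hp on HFD, and C3, which kept its strain order. Capitals mark matches on either strand to a C/EBP-type motif (TTNNGNAAT), a STAT-type motif (TTCNNNGAA), an NF-kappaB-type motif (GGGNNTTCC) or a TATA-type motif (TATAAA).
Lrg1, chr17:56121897-56122196, minus strand: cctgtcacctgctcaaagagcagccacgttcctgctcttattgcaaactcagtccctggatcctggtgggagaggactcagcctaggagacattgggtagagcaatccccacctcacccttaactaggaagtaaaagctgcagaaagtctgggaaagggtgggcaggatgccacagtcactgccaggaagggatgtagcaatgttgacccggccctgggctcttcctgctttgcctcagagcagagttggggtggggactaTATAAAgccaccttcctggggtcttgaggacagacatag
Saa3, chr7:46715627-46715926, minus strand: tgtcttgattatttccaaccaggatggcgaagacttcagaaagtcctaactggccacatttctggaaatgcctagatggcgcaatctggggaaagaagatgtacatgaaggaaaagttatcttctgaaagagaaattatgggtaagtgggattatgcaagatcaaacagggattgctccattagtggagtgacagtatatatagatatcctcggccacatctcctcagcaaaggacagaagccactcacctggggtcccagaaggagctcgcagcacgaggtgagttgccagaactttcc
C3, chr17:57228087-57228386, minus strand: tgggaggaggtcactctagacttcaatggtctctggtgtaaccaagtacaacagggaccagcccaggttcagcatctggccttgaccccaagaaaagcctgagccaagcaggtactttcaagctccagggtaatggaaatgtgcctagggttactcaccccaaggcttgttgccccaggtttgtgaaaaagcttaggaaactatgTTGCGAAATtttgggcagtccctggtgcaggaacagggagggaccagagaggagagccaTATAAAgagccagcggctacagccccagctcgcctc
The C3 window held 1 C/EBP-type match, TTGCGAAAT, and 1 TATA-type match, the Lrg1 window 1 TATA-type match, and the Saa3 window no match to these letters. Relative to the annotated start the C/EBP-type match began at -45. The TATA-type matches lay after the start, at 14 in C3 and at 11 in Lrg1. Among 32851 such windows, 11.5% held the C/EBP-type, 8.3% the STAT-type, 5.8% the NF-kappaB-type and 13.6% the TATA-type letters. These matches are descriptions of the sequence and not sites of binding.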

How the data were processed

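Quadriceps RNA pools were hybridised to Affymetrix Mouse Gene 1.0 ST arrays. The authors deposited one score per probeset and array, with mean 8.0 and SD 2.0 on each array. The submitters' processing notes name Affymetrix Expression Console, and its version and settings are not given in the sources used here. The linear models, designed with log2 values in mind, were run on this score, whose scale (log or linear) and summarization are not given in the sources used here. Precision is limited by the number of arrays, which have no counting depth. No array repeated another.

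A gene was represented by its probeset with the highest mean. limma 3.58.1 (R 4.3.3) fitted diet and array batch over 79 arrays and 35556 probesets, and slopes on Hp within each diet and on the HFD minus CD difference of 37 strains. The threshold was an adjusted p below 0.05 (Benjamini-Hochberg, over all probesets). Correlations used batch-centred values and two-sided permutation tests with 100000 draws. Fits were tested on simulated data. Strains were called clustered where 2 normal components fitted better than 1 by a BIC of 10 or more, with Ashman's D over 2 (for Hp on CD, 24.6 and 4.77). Other tools were matplotlib 3.10.9, scikit-learn 1.9.0, scipy 1.17.1, pandas 2.3.3, numpy 2.4.6 and Python 3.11.15.

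Arrays are paired through the strain named in the labels. Deviations from the diet means correlated within pairs with a median r of 0.214 (from -0.136 to 0.395), and 33 of 37 exceeded 0.1. Named genes were the members, the defining markers, for each list the 2 largest called differences in each direction, and the 10 genes most like Hp. Orm2, Orm3, Tf, Alb, Sncg, the genes whose call changed between settings and single strains other than those with the 3 highest and 3 lowest Hp differences were named after their values were seen. The members and lists were chosen with earlier results of these data known.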

Additional observations from a re-analysis of the deposited data

How the results depend on the processing

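With strain as a replicate block, the same count of 2 members rose between diets, beside 7343 of 35556 probesets that rose and 7098 that fell. No slope difference was called with the block. Among all listed genes other than Hp the block kept the totals at 39 higher and 16 lower, but 6 calls were lost and 6 gained. Without BXD51 and BXD66 5 calls were lost and 2 gained, and the slopes on Hp of C3ar1 on HFD (limma adjusted p 0.0571), and of Fabp4 (0.0734) and Itgax (0.0812) on the difference between diets, no longer passed. With the adipocyte marker mean as a term the totals were 17 higher and 22 lower, with 25 calls lost and 9 gained. In that fit 15% of all probesets were called higher and 15.7% lower. The adipocyte markers, whose own mean is the term, gave 5 of the lost calls and 1 of those gained, and for them the outcome depends on the term itself. Between diets, 1 member rose within batch 1 (where 5.82% of all probesets rose), 1 within batch 2 (12.2%) and 0 with the adipocyte marker mean as a term (15%). With that term 2 members fell, Cp and C3, beside 15.7% of all probesets. In that last fit the difference turned for Orm1 (-0.114) and Saa3 (-0.043). Slopes on Hp on CD passed for 2 members in batch 1 (Orm1 and Saa3, against 0.0253% of probesets), and for 0 in batch 2 (0.0647%), with the adipocyte term (0.0281%) and in the lower Hp cluster (0.00281%). On HFD they passed for 0 members in batch 1 (0.00281%), for 1 in batch 2 (0.222%), for 1 without dim probesets (1.1%), where Saa3 was not tested, and for 1 with the adipocyte term (0.0253%). On the difference between diets 0 passed in strains with both arrays in the same batch (0.0816%) and 0 with the adipocyte term (0.00281%). The strain order across diets passed for 0 members in each of the batch subsets (2.86% in batch 1, 3.47% in batch 2 and 0% in different batches). Without BXD51 and BXD66 it passed for 1 member, beside 3222 of 35556 probesets. Batch subsets hold fewer arrays, and where almost no probeset passed a count of 0 says nothing about the members. The cause of the other changes was not tested.

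Other values turned sign without passing the test there. With the adipocyte term the slope of Cp was -0.029 on the difference and -0.053 on CD, and that of Lcn2 -0.001 on the difference. The slope of Lcn2 was -0.05 in batch 1 on CD, -0.011 with ranks on CD and -0.074 in batch 1 on HFD. The slope of Saa3 was -0.014 in batch 2 on CD. Across diets r was -0.266 for Lcn2 in batch 1, and -0.214 in batch 2 and -0.026 without the 2 farthest strains for Saa3. The subset of the lower Hp cluster, the omission of BXD51 and BXD66, the adipocyte term for the listed genes and the ranking by HFD alone were chosen after seeing the data. Counts of calls over all probesets between diets went from 6703 higher and 6848 lower to 2068 and 2423 in batch 1 and 4337 and 4354 in batch 2, to 3046 and 2246 among bright probesets, and to 8199 and 5758 with arrays centred on the median, which moved the median of all probesets by under 0.1 units.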
